A study of Mus musculus with 6 samples.

Results

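The genes described here are the corticosteroid receptors, the enzyme that regenerates the active hormone, and a set of known glucocorticoid target genes in the arcuate nucleus (ARC) of male mice on a normal-chow diet (NCD) or a high-fat diet (HFD). There were 10 of them, of 22322 genes in the table: *Nr3c1*, *Nr3c2*, *Hsd11b1*, *Fkbp5*, *Tsc22d3*, *Zbtb16*, *Hif3a*, *Sgk1*, *Sult1a1* and *Errfi1*. They were selected from known roles in the pathway while the read counts of these same samples, and how they differed between the diets, were already known. The differences between the diets are therefore given as a description and not as a test. NCD held 16.5% fat and HFD 60% fat, feeding started when the males were 4 weeks old and lasted 16 weeks, and no further treatment is named for either group. The methods name wild-type C57BL/6J, Kiss1-Cre and R26R-EYFP mice, and Kiss1-Cre mice crossed with R26R-EYFP reporters served to locate the area that was cut, but which of these gave the sequenced tissue is not stated. Laser capture microdissection (LCM) of frozen sections gave the ARC tissue, with 3 samples per diet (NCD1 to NCD3, HFD1 to HFD3). The labels do not say whether a sample was 1 mouse or a pool, so any p-value measures the spread between these samples only.

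Glucocorticoids cross the cell membrane and bind the glucocorticoid receptor or, with higher affinity, the mineralocorticoid receptor. Both receptors are held by heat shock proteins until the hormone binds, after which they move to the nucleus and act on DNA at palindromic response elements. In the hypothalamus this hormone restrains the stress axis and acts on the neurons that control feeding, and many of its target genes are expressed in glia and vessels as well as in neurons.

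The libraries held from 5171381 counts in HFD3 to 15925648 counts in NCD1, with 9937632 in NCD2, 6882449 in NCD3, 8024664 in HFD1 and 10479778 in HFD2. Levels below are CPM, the counts scaled by library size and TMM factors, and the log2 ratio is the log2 fold change of HFD against NCD from edgeR, with its standard error (SE). All 10 genes passed the filter on low counts, as did 14188 genes in all. Over all genes tested the median log2 ratio was 0.0032. Of the 10 genes of the ARC neuron list 9 were detected in every sample, led by *Cartpt* at a mean of 733 CPM. *Kiss1*, by which the dissected area was located, had 27 counts in NCD2, 32 in NCD3, 21 in HFD2 and 42 in HFD3, but 0 counts in NCD1 and in HFD1. In bulk tissue, a lower share of one cell type and less RNA per cell cannot be told apart.

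The glucocorticoid receptor *Nr3c1* (chromosome 18, 39410545 to 39519421, GRCm38) was the more abundant receptor, and its levels overlapped between the diets. Its level was 166, 171 and 227 CPM in NCD1 to NCD3 and 196, 164 and 187 CPM in HFD1 to HFD3. The values overlapped, with means of 188 ± 34.1 CPM on NCD and 182 ± 16.6 CPM on HFD (SD, n = 3) and a log2 ratio of -0.045 (with SE 0.21). The mineralocorticoid receptor *Nr3c2* (chromosome 8, 76899442 to 77245012) was lower in HFD. It stood at 30.6, 21.6 and 20.4 CPM in NCD1 to NCD3 and at 12.04, 16.9 and 16.0 CPM in HFD1 to HFD3. Every HFD sample was below every NCD sample, and NCD1 was the highest of all. The means were 24.2 ± 5.58 CPM and 14.98 ± 2.59 CPM (SD, n = 3), a log2 ratio of -0.70 (with SE 0.25). In FPKM, which divides by the transcript length that the authors' software assigned, the diets of *Nr3c2* overlapped, because HFD3 had 4.90 FPKM against 3.44 to 6.33 FPKM in NCD. Exons of *Nr3c2* share bases with *Gm10649*, which was not analysed here.

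**Figure D1:**
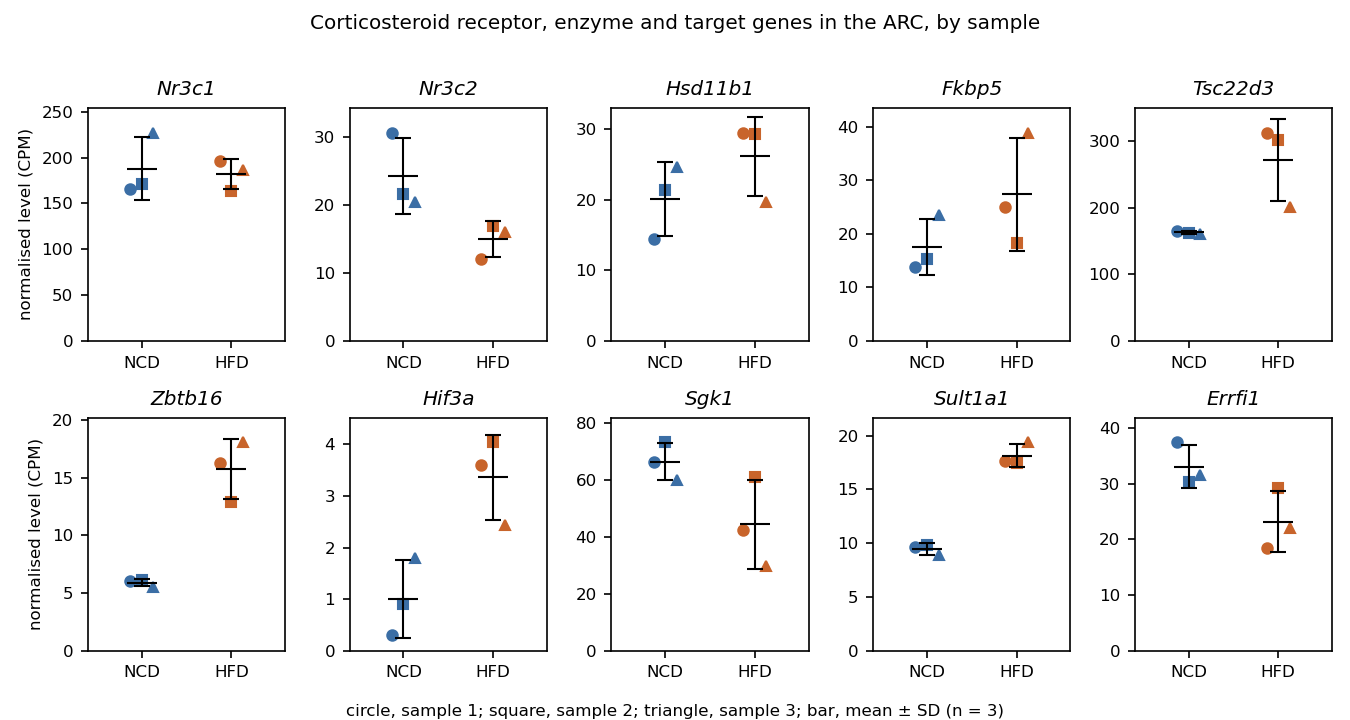
Normalised level (CPM, linear axes from 0) of each of the 10 genes in the 3 NCD samples and the 3 HFD samples. Points are samples and bars are the mean ± SD. *Zbtb16*, *Sult1a1*, *Tsc22d3* and *Hif3a* lie higher in every HFD sample than in any NCD sample, and *Nr3c2* and *Errfi1* lie lower. In FPKM the diets of *Hif3a* and *Nr3c2* overlap.

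*Hsd11b1* (chromosome 1, 193221634 to 193264075) encodes the enzyme that turns inactive 11-dehydrocorticosterone back into corticosterone inside the cell. It was at 14.4, 21.4 and 24.6 CPM in NCD1 to NCD3 and at 29.5, 29.3 and 19.7 CPM in HFD1 to HFD3. HFD1 and HFD2 lay above all NCD samples while HFD3 lay within them, and the log2 ratio was 0.39 (SE 0.26), or 0.19 without NCD1. *Fkbp5* (chromosome 17, 28399094 to 28517527) encodes a co-chaperone that is induced by the receptor and lowers its affinity for hormone, which closes a feedback loop within the cell. It was at 13.8, 15.3 and 23.6 CPM in NCD1 to NCD3 and at 25.0, 18.2 and 38.9 CPM in HFD1 to HFD3. The diets overlapped, since NCD3 exceeded HFD2, and the log2 ratio was 0.64 (SE 0.31). The log2 ratio of *Fkbp5* was 0.31 without HFD3 and 0.25 when depth was a term of the fit.

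Of the 10 genes, *Zbtb16* had the largest log2 ratio relative to its SE. *Zbtb16* (chromosome 9, 48654297 to 48836222) encodes a zinc finger transcription factor also known as PLZF. Its level was 6.07, 6.10 and 5.56 CPM in NCD1 to NCD3, from 101, 60 and 37 counts, and 16.3, 12.9 and 18.0 CPM in HFD1 to HFD3, from 131, 131 and 96 counts. The NCD samples were close to each other and the lowest HFD sample was far above them. The means were 5.91 ± 0.304 CPM and 15.7 ± 2.61 CPM (SD, n = 3), which is 2.64-fold higher in HFD (log2 ratio 1.40, SE 0.27).

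*Sult1a1* (chromosome 7, 126672865 to 126676432), a cytosolic sulfotransferase of phenols, differed between the diets with little spread within either. It was at 9.68, 9.86 and 8.87 CPM in NCD1 to NCD3 and at 17.6, 17.4 and 19.4 CPM in HFD1 to HFD3. The level was 1.91-fold higher in HFD (9.47 ± 0.53 CPM against 18.1 ± 1.06 CPM, SD, n = 3), a log2 ratio of 0.93 (with SE 0.24). Exons of *Sult1a1* share bases with *Sgf29* on the opposite strand, and whether the counting used strand is not given in the sources used here. *Sgf29* itself was at 14.1 ± 3.71 CPM on NCD and 15.02 ± 6.09 CPM on HFD (SD, n = 3), with a log2 ratio of 0.11 (with SE 0.32).

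*Tsc22d3* (chromosome X, 140539528 to 140600659) encodes GILZ, a leucine zipper protein through which glucocorticoids restrain inflammatory transcription factors. It was at 165, 163 and 161 CPM in NCD1 to NCD3 and at 313, 302 and 202 CPM in HFD1 to HFD3. The NCD samples were nearly equal, and HFD3 was the HFD sample nearest to them. The means were 163 ± 1.92 CPM and 272 ± 61.3 CPM (SD, n = 3), 1.67-fold higher in HFD (log2 ratio 0.74, SE 0.22).

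*Hif3a* (chromosome 7, 17031507 to 17062427), a hypoxia-inducible factor subunit some of whose forms oppose the other subunits, was the least abundant of the genes and the one whose deposited measures disagreed most. It had 5, 9 and 12 counts in NCD1 to NCD3 and 29, 41 and 13 counts in HFD1 to HFD3. With counts this low, the 95% Poisson interval for NCD1 ran from 1.62 to 11.7 counts and that for HFD3 from 6.92 to 22.2 counts. Scaled to library size, the levels were 0.301, 0.915 and 1.80 CPM in NCD1 to NCD3 and 3.60, 4.04 and 2.44 CPM in HFD1 to HFD3, with no overlap between the diets. The log2 ratio was 1.88 (SE 0.60). *Hif3a* passed the filter on low counts through the HFD samples, being under the filter's level in NCD1 and NCD2, so its difference is no support. In the deposited FPKM, however, *Hif3a* was at 0.28, 0.14 and 1.18 in NCD1 to NCD3 and at 0.56, 0.68 and 0.39 in HFD1 to HFD3. NCD3 was then the highest sample of all, and the group means differed by less than their SD, at 0.533 ± 0.564 in NCD and 0.543 ± 0.146 in HFD (SD, n = 3).

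Count, FPKM and library total together imply the transcript length by which each value was divided. For *Hif3a* that length was 1121 bases in NCD1 and 1478 bases in NCD3, but 6469 bases in NCD2, 6453 in HFD1, 5753 in HFD2 and 6446 in HFD3. GENCODE M21 lists 4 transcripts of *Hif3a*, of 371, 461, 2206 and 6402 bases. In NCD2, HFD1 and HFD3 the implied length was thus close to the longest transcript, whereas in NCD1 and NCD3 it lay between the shorter ones. If every count were divided by 6402 bases, FPKM would be 0.154 ± 0.112 in NCD and 0.523 ± 0.115 in HFD (SD, n = 3). NCD2 thus had an implied length like those of the HFD samples.

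Among the other genes the implied length was steadier. It moved by less than 1.01-fold between samples for *Errfi1* (3041 to 3045 bases, where the longest annotated transcript has 3043), and ranged from 1954 to 1968 bases for *Tsc22d3*. For *Nr3c2* it ran from 3354 bases in HFD3 to 5759 bases in HFD2, a ratio of 1.72. For *Zbtb16* it ran from 3338 bases in NCD1 to 4869 bases in NCD2, a ratio of 1.46, and for *Nr3c1* from 4056 to 5701 bases, a ratio of 1.41. Of the 12197 genes with at least 20 counts in every sample, 9.09% had implied lengths more than 1.5-fold apart, and the median ratio was 1.05. In FPKM, *Tsc22d3*, *Zbtb16* and *Sult1a1* were still higher in every HFD sample than in any NCD sample and *Errfi1* was still lower.

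**Figure D2:**
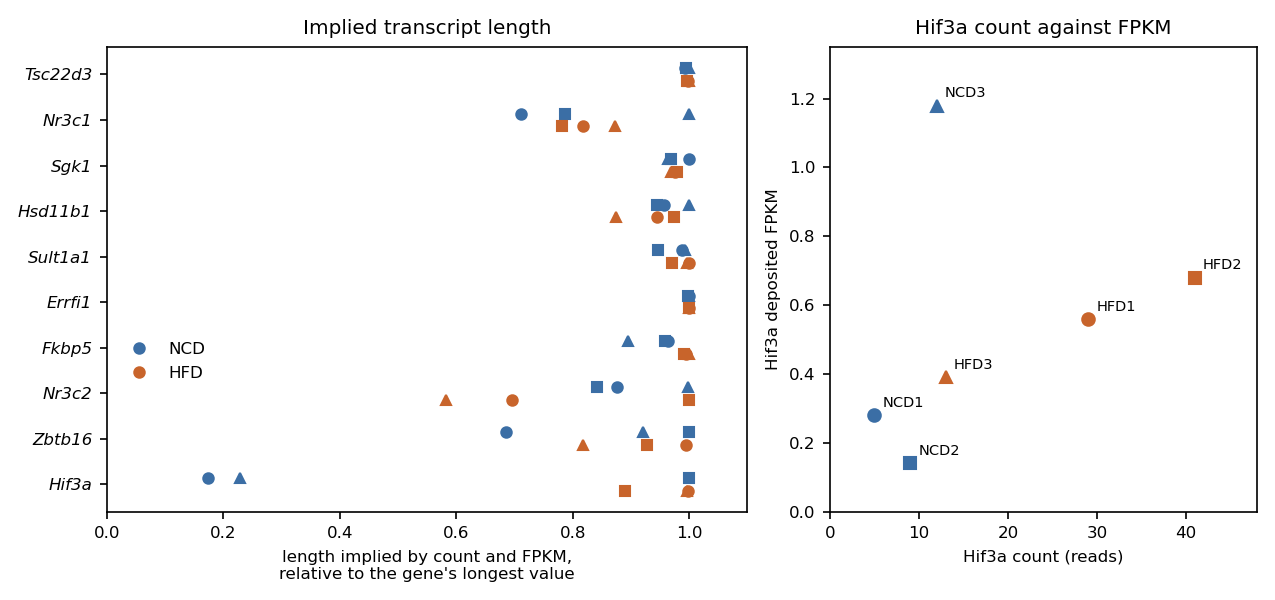
Left, transcript length implied by count and FPKM in each sample (x axis, relative to the longest value of that gene). Right, the *Hif3a* count (reads) against its deposited FPKM, with each sample named. NCD1 and NCD3 stand apart for *Hif3a*, and NCD3 has the highest FPKM of *Hif3a* from only 12 counts.

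The remaining target genes, *Sgk1* and *Errfi1*, were lower in HFD. *Sgk1* (chromosome 10, 21882184 to 21999903) encodes a kinase that regulates ion channels and transporters and is a classical target of both corticosteroid receptors. It was at 66.3, 73.3 and 60.1 CPM in NCD1 to NCD3 and at 42.5, 61.0 and 29.9 CPM in HFD1 to HFD3. HFD2 lay within the NCD range, so the diets overlapped, and the log2 ratio was -0.58 (SE 0.25), or -0.36 without HFD3 and -0.88 without HFD2. *Errfi1* (chromosome 4, 150853919 to 150868892) encodes MIG6, an inhibitor of the epidermal growth factor receptor. It was at 37.4, 30.3 and 31.6 CPM in NCD1 to NCD3 and at 18.5, 29.1 and 22.0 CPM in HFD1 to HFD3. The diets did not overlap, but HFD2 lay just under NCD2, and the log2 ratio was -0.51 (SE 0.23).

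The target genes thus lay on both sides of NCD, and their promoters are shown because they differ in receptor motifs. RefSeq windows of 300 bases (250 before the annotated start and 50 from it on, GRCm38.p6) matched 8 of the 10 genes, with 16 windows in all. They were searched for the full glucocorticoid response element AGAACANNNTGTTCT, for its half-site AGAACA (or TGTTCT on the other strand), for the cAMP response element TGACGTCA and for the E-box CACGTG. The half-sites are contained in the full element. The full element was found in 1 of these windows, which belongs to *Sgk1*, and in 3 of the 32851 windows in the table (0.00913%). It reads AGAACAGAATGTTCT at chr10:21993701-21993715, and starts 189 bases before one of the 6 annotated starts of *Sgk1*. Half-sites occurred in windows of *Sgk1*, *Sult1a1* and *Tsc22d3*, and in 19% of all windows. The cAMP response element, the site of CREB1, occurred in 1 of the 2 windows of *Errfi1*, 51 bases before the start, and in 1.79% of all windows. The E-box occurred in the window of *Fkbp5* and in the window of *Sgk1* that holds the full element, where it overlaps a half-site, and in 7.15% of all windows. These matches are a description of letters and not of binding. In the windows below, written 5′ to 3′ on the strand of the gene, capitals mark receptor half-sites for *Sgk1* (chr10:21993640-21993939, plus strand), *Sult1a1* (chr7:126676369-126676668, minus strand) and *Tsc22d3* (chrX:140600473-140600772, minus strand), and the cAMP response element for *Errfi1* (chr4:150854820-150855119, plus strand).
Sgk1: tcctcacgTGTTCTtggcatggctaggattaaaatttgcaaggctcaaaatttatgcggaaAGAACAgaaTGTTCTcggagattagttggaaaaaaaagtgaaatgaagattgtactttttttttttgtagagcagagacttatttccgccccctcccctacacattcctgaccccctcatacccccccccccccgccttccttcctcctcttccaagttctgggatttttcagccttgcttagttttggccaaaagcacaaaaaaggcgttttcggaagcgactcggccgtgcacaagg
Sult1a1: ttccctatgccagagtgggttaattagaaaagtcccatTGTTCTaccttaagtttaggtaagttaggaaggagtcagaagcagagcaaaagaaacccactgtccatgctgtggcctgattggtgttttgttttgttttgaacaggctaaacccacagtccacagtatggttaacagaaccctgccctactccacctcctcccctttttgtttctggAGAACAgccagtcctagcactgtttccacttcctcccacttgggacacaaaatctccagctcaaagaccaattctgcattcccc
Tsc22d3: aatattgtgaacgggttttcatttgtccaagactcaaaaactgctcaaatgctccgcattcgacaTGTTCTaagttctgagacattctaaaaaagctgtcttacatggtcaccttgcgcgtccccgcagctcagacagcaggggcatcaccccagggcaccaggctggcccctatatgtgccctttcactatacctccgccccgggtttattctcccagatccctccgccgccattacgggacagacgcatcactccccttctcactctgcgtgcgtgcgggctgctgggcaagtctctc
Errfi1: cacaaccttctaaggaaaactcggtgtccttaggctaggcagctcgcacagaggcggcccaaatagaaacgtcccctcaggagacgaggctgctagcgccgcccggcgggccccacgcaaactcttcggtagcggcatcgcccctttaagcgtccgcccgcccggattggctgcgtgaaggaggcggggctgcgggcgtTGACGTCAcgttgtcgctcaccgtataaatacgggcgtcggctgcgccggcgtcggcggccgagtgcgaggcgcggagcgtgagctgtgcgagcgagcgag

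The windows of *Nr3c2*, *Hsd11b1*, *Hif3a*, *Fkbp5* and *Errfi1* held no receptor half-site, and *Nr3c1* and *Zbtb16* were not searched. Genes higher and genes lower in HFD were found both with and without a receptor motif. The annotated starts of *Sgk1* and *Tsc22d3* are several, and which of them was used in these samples was not tested.

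Compared per transcript length, the levels of the 10 genes spanned from a mean of 111 FPKM for *Tsc22d3* (79.3 to 160 over the 6 samples) to 0.538 FPKM for *Hif3a* (0.14 to 1.18). *Nr3c1* came second with 39.3 FPKM (35.7 to 42.7), and both *Tsc22d3* and *Nr3c1* were above the next gene in all 6 samples with no overlap of their ranges. *Sgk1* (21.9 FPKM), *Hsd11b1* (15.8), *Sult1a1* (10.7), *Errfi1* (9.26), *Fkbp5* (6.73), *Nr3c2* (4.16) and *Zbtb16* (2.52) followed in this order, and the ranges of each of these neighbours overlapped. *Sult1a1* was above *Errfi1* in 3 of 6 samples, so their order was not fixed. *Zbtb16* was above *Hif3a* in all 6 samples. The glucocorticoid receptor exceeded the mineralocorticoid receptor by a ratio of 6.75, 8.57 and 11.2 in NCD1 to NCD3 and of 13.99, 12.5 and 7.88 in HFD1 to HFD3 on the FPKM scale. The mean ratio was 8.84 ± 2.24 in NCD and 11.5 ± 3.19 in HFD (SD, n = 3), and the diets overlapped. As a ratio of counts, with no length involved, it was 5.42, 7.94 and 11.1 in NCD1 to NCD3 and 16.3, 9.69 and 11.7 in HFD1 to HFD3, which overlapped too, and HFD3 then lay above all NCD samples.

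**Figure D3:**
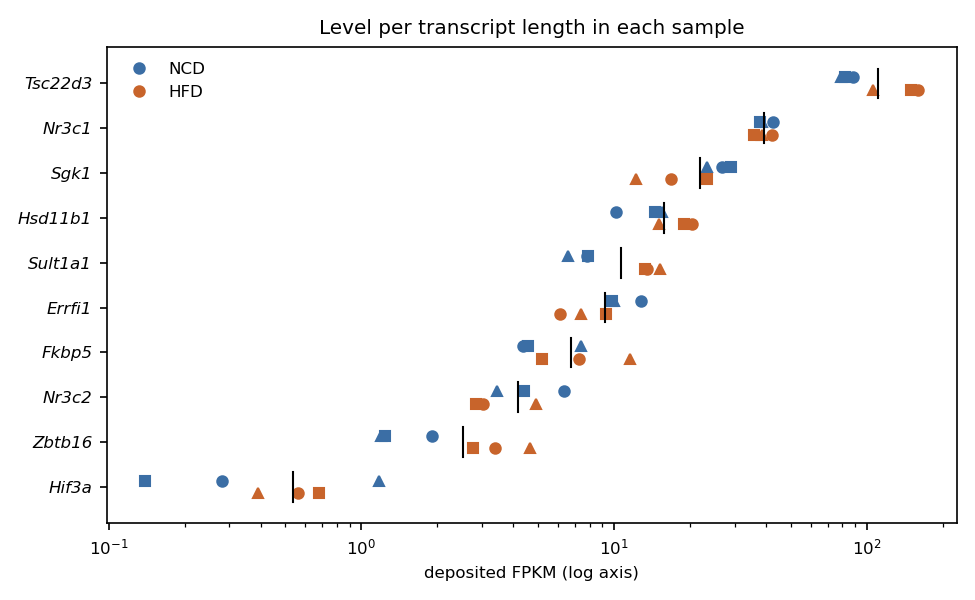
Deposited FPKM (log axis) of the 10 genes in each sample, ordered by their mean over the 6 samples, which the black line marks. *Tsc22d3* and *Nr3c1* are set apart at the top and *Hif3a* at the bottom, while the ranges of neighbours between *Sgk1* and *Zbtb16* overlap.

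In all, 6 of the 10 genes were higher in HFD and 4 lower. The diets did not overlap for 4 of the higher genes, *Zbtb16*, *Sult1a1*, *Tsc22d3* and *Hif3a*, where 3.24% of all genes tested were higher in every HFD sample. They did not overlap for 2 of the lower genes, *Nr3c2* and *Errfi1*, where 3.24% of all genes were lower in every HFD sample. These separations are in CPM, and in FPKM the diets of *Hif3a* and *Nr3c2* overlapped. *Hif3a* also passed the filter on low counts through the HFD samples, so its place here is no support. In edgeR 7 of the 10 had p under 0.05, against 2.30% of all genes, and none had an adjusted p under 0.05, against 0.0564% of all genes. In DESeq2 *Zbtb16* alone of the 10 had an adjusted p under 0.05, against 0.105% of all genes. Since the genes were proposed with this comparison known, no meaning attaches to these shares. The HFD samples did not order the target genes in one way. HFD3 had the highest level of all 6 samples for *Fkbp5*, *Zbtb16* and *Sult1a1* and the lowest for *Sgk1*, but the lowest HFD level for *Tsc22d3*, *Hsd11b1* and *Hif3a*.

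The rest of the pathway was described with 5 lists of 62 further genes, of which 55 were tested. These lists were chosen with earlier results of these data known. The shares given for them here and below are therefore a description and not support. None had an adjusted p under 0.05 in edgeR, against 0.0564% of all genes tested. Before adjustment 9 had p under 0.05 in edgeR (16.4%, against 2.30% of all genes tested), and 4 did without NCD2 or without HFD3. DESeq2 gave 2 with an adjusted p under 0.05, against 0.105% of all genes. Of the 9, 6 were higher in HFD, where 1.21% of all genes were higher at that threshold, and 3 were lower, where 1.09% were. In total 35 genes were higher and 20 lower, with a median log2 ratio of 0.078 against 0.0032 for all genes.

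The list of other target genes held 8 of the 9, *Plin4* among them. Of its 24 genes tested, 17 were higher in HFD and 7 lower, with a median log2 ratio of 0.17. *Plin4*, a lipid droplet protein, had 40, 7 and 3 counts in NCD1 to NCD3 and 23, 34 and 25 counts in HFD1 to HFD3. It passed the filter on low counts through the HFD samples, being under the filter's level in NCD2 and NCD3. Its difference and its place among the 9 are no support for this reason as well, though the counts given here include it. Its level went from 1.19 ± 1.06 CPM on NCD to 3.63 ± 0.954 CPM on HFD (SD, n = 3, log2 ratio 1.47, SE 0.58). *Arrdc2*, an arrestin-domain protein, had a log2 ratio of 0.88 (with SE 0.31). *Mertk*, a receptor for the uptake of dying cells, had one of 0.79 (SE 0.29). The metallothionein *Mt2* had one of 0.77 (SE 0.30). *Fam107a*, which binds actin, went from 110 ± 9.29 CPM to 158 ± 24.7 CPM (SD, n = 3, log2 ratio 0.52), and *Mfsd2a*, a lipid transporter of the blood-brain barrier, had a log2 ratio of 0.49 (with SE 0.22). Each of these 6 genes had an adjusted p of 0.999 in edgeR. Over the whole list 7 of the 24 genes tested, *Plin4* among them, were higher in every HFD sample, beside 3.24% of all genes tested. This share too is a description, since the list was chosen with earlier results known. *Mt1*, the most abundant gene of the list, was at 386 ± 127 CPM on NCD and 565 ± 69.5 CPM on HFD (SD, n = 3, log2 ratio 0.55, SE 0.27).

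The lower genes of that list with p under 0.05 were *Dusp1*, a phosphatase of MAP kinases, and *Per1*, a core gene of the circadian clock. *Dusp1* had a log2 ratio of -1.16 (with SE 0.22, adjusted p = 0.194 in edgeR and 0.0049 in DESeq2). *Per1* was at 42.6, 54.2 and 56.7 CPM in NCD1 to NCD3 and at 32.8, 31.4 and 39.1 CPM in HFD1 to HFD3, a log2 ratio of -0.57 (with SE 0.21, adjusted p = 0.999 in edgeR). Both genes are also known to be induced by neuronal activity.

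**Figure D4:**
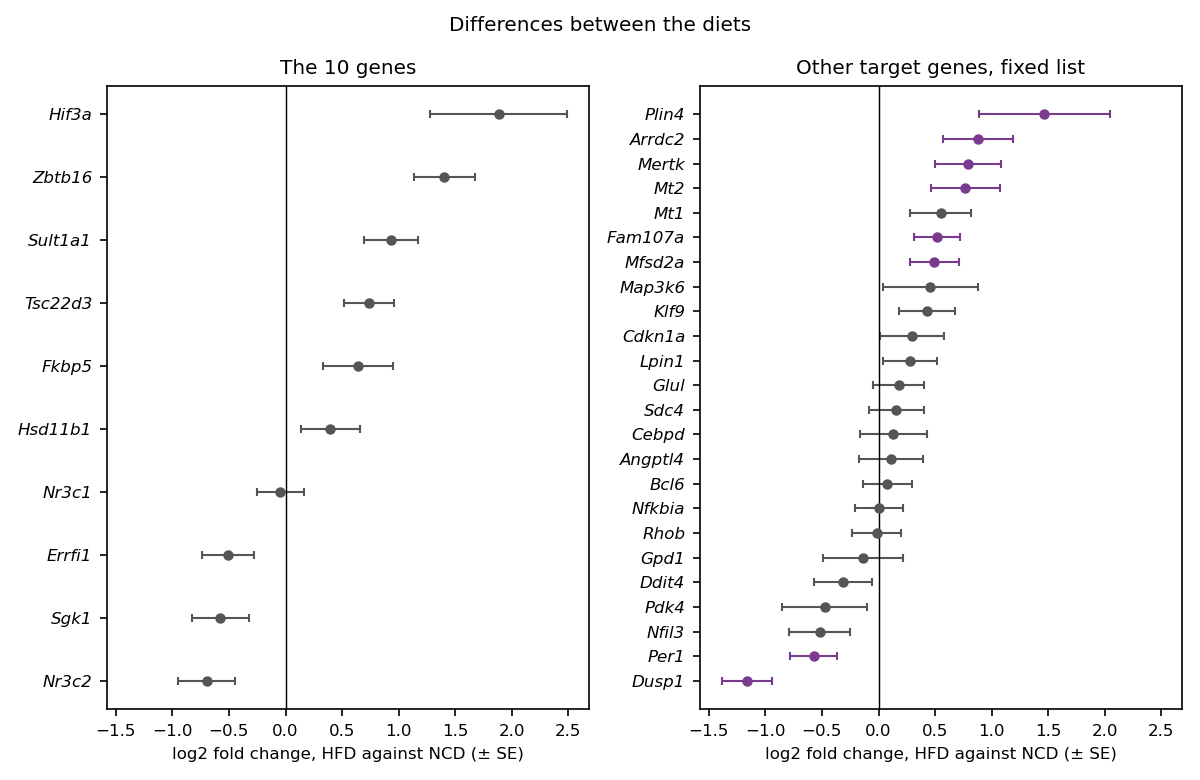
Log2 ratio, HFD against NCD, with its SE (edgeR, 3 samples per diet) for the 10 genes on the left and for the 24 tested genes of the list of other glucocorticoid targets on the right. On the right, purple marks the 8 genes with p under 0.05 before adjustment, of which *Plin4* is the highest and *Dusp1* the lowest. *Plin4* passed the filter on low counts through the HFD samples.

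Among chaperones, coregulators and the metabolism of the hormone no gene had p under 0.05 in edgeR. The 10 receptor chaperones had 4 genes higher and 6 lower, none with p under 0.05, and a median log2 ratio of -0.0039. *Hspa8*, the most abundant, was at 3666 ± 384 CPM on NCD and 3784 ± 883 CPM on HFD (SD, n = 3), and *Fkbp4*, which competes with *Fkbp5* for the receptor complex, was at 299.6 CPM and 299.2 CPM, respectively. Of the 10 coregulators 7 were higher and 3 lower, none with p under 0.05, and *Ncor1* was the most abundant at a mean of 199 CPM. In the list of hormone metabolism and transport, 4 of 9 genes were tested, all of them higher in HFD and none with p under 0.05, with *Abcb1a*, an efflux pump of the blood-brain barrier, the most abundant at a mean of 13.1 CPM. The adrenal enzymes *Cyp11a1*, *Cyp11b1* and *Cyp21a1*, the inactivating enzyme *Hsd11b2* and the binding globulin *Serpina6* were below the filter, and *Serpina6* had no count in any sample.

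Of the 8 stress axis peptides and receptors 7 were tested, with 3 higher and 4 lower. *Avp*, which encodes vasopressin, was the most abundant and the only one with p under 0.05. It was at 2379, 4883 and 1959 CPM in NCD1 to NCD3 and at 1047, 943 and 829 CPM in HFD1 to HFD3, a log2 ratio of -1.71 (with SE 0.33, adjusted p = 0.194 in edgeR and 2.32e-05 in DESeq2). *Crh*, the releasing hormone of the axis, was at 3.05 ± 0.881 CPM on NCD and 2.45 ± 0.335 CPM on HFD (SD, n = 3).

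Marker lists of the cell types that LCM tissue can hold were set beside these results, and their part in them was not tested. For endothelial cells, 4 of 7 genes were higher and 3 lower, and the summed level was 208, 205 and 180 CPM in NCD1 to NCD3 and 207, 211 and 209 CPM in HFD1 to HFD3, with *Flt1* the most abundant. For astrocytes, 2 of 7 were higher and 5 lower, and the sum was 3747, 4070 and 2870 CPM on NCD and 4092, 3991 and 2580 CPM on HFD, with *Aldoc* the most abundant. Neither sum separated the diets. Single markers had p under 0.05 before adjustment in edgeR, as did 2.30% of all genes tested. Those named in this paragraph all had an adjusted p of 0.999. *Gfap*, an intermediate filament of astrocytes, was at 169 ± 74.4 CPM on NCD and 310 ± 105 CPM on HFD (SD, n = 3, log2 ratio 0.88), with overlap. The endothelial gene *Ly6c1* was higher (log2 ratio 0.81) and *Cldn5* lower (-0.48), both without overlap. For microglia, 3 of 6 were higher and 3 lower, with *Csf1r* the most abundant, and for mural cells all 6 had a log2 ratio below 0, with *Rgs5* the most abundant, at -0.0022. *C1qa* (log2 ratio 0.46) and *Acta2* (-0.83) of these lists had p under 0.05 before adjustment, but the sums of both lists overlapped between the diets. For ependymal cells and tanycytes 4 of 6 were higher, with *Rarres2* the most abundant, and *Crym* (log2 ratio 0.89) had p under 0.05 before adjustment. Their sum overlapped, as did those of oligodendrocytes, their precursors, choroid plexus and neurons as a whole. For red cells all 5 were lower, and the sum was 781, 2485 and 1964 CPM on NCD and 1685, 1155 and 823 CPM on HFD, which overlapped too. For fibroblasts, 3 of 6 were higher, and the sum was 199 CPM in HFD3 against 57.9 to 99.2 CPM in the other samples, with *Dcn* the most abundant. HFD3 was also the smallest library and the sample with the highest *Fkbp5* and *Zbtb16*, and without it the log2 ratio of *Zbtb16* was 1.29. No marker of any list was at 0 in every sample.

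The sums of the paraventricular neuron and immediate early gene lists did separate the diets. For paraventricular neurons, 4 of 6 genes were lower in HFD, and the sum was 2956, 5900 and 2638 CPM in NCD1 to NCD3 and 1429, 1496 and 1348 CPM in HFD1 to HFD3, with *Avp* the most abundant. *Avp* and *Oxt*, which encodes oxytocin, made up most of that sum, and not all of the list followed them. *Oxt* had a log2 ratio of -0.87 and *Sim1* of -0.60, both with no overlap of the diets, whereas *Trh* was higher in every HFD sample (log2 ratio 0.51) and *Otp* was at 17.1 ± 9.92 CPM on NCD and 21.8 ± 11.7 CPM on HFD (SD, n = 3). Of the ARC neuron list 8 of 10 genes were higher and 2 lower, with a median log2 ratio of 0.31. Its sum overlapped between the diets, at 1546, 2461 and 1704 CPM in NCD1 to NCD3 and 2128, 2036 and 2374 CPM in HFD1 to HFD3. *Cartpt* (log2 ratio 0.75), which was higher in every HFD sample, and *Tac2* (0.60) had p under 0.05 before adjustment, but an adjusted p of 0.999 in edgeR. The immediate early list holds genes transcribed rapidly after a neuron is stimulated. All 11 of them were lower in HFD. In edgeR 7 (*Fos*, *Junb*, *Egr1*, *Egr2*, *Egr4*, *Nr4a1* and *Arc*) had an adjusted p under 0.05, against 0.0564% of all genes tested. That share stands for 8 genes, of which these are 7, and the list was chosen with earlier results of these data known. The comparison is therefore a description and not support. *Egr2* passed the filter on low counts through the NCD samples. It was under the filter's level in HFD1 to HFD3, with 8, 9 and 3 counts, so its difference and its place among the 7 are no support for this reason as well. With 1 sample left out all 11 were still lower, but only 1 had an adjusted p under 0.05 without NCD2, without HFD1 or without HFD2, and 3 had one without HFD3. Their sum was 443, 737 and 642 CPM in NCD1 to NCD3 and 123, 128 and 178 CPM in HFD1 to HFD3, with *Egr1* the most abundant. *Per1*, *Dusp1* and *Errfi1* were lower in the same samples, though *Dusp1* was lowest in HFD3, where the early gene sum was the highest of HFD, and a link between them was not tested. For the circadian list, 7 of 12 were higher and 5 lower, and the sum was 843, 709 and 619 CPM on NCD and 693, 760 and 730 CPM on HFD, with *Tef* the most abundant. Of this list *Dbp*, a clock-controlled transcription factor, was higher in every HFD sample (log2 ratio 0.62, SE 0.19), and *Per1* was lower in every HFD sample. Each had p under 0.05 before adjustment, but an adjusted p of 0.999 in edgeR. Whether the samples were taken at the same time of day is not given in the sources used here.

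**Figure D5:**
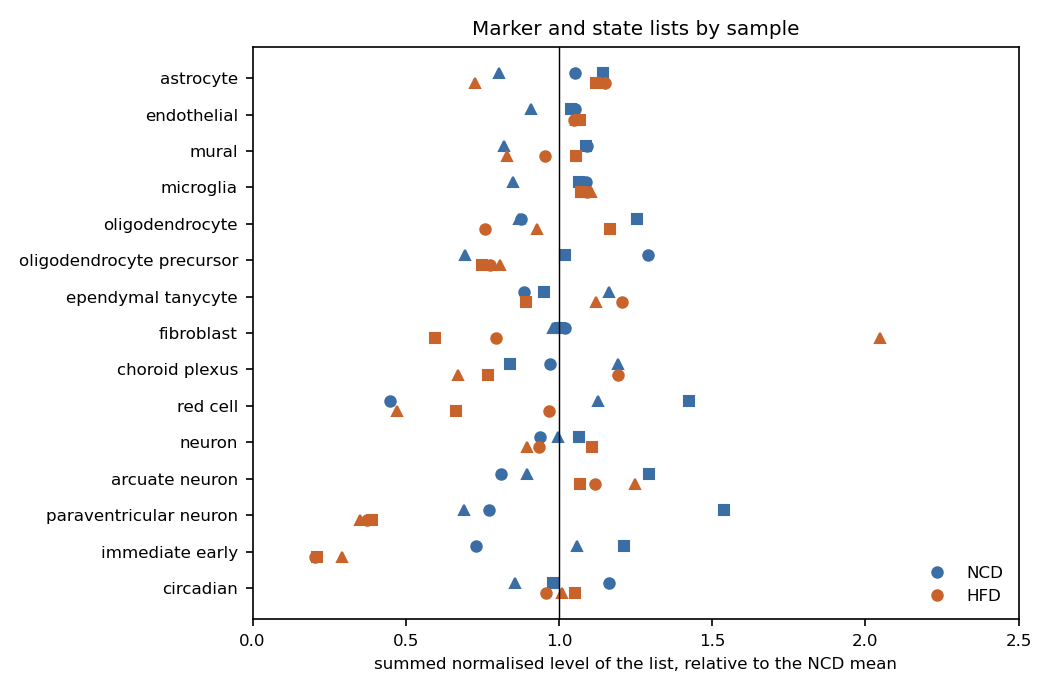
Summed CPM of each marker or state list in each sample, relative to the mean of the 3 NCD samples (x axis, linear from 0). The immediate early and paraventricular lists are lower in all 3 HFD samples than in any NCD sample, and HFD3 stands apart for fibroblast markers.

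The mean profile of the 7 target genes (the 6 targets and *Fkbp5*), as log2 CPM centred on each gene's mean, was -0.45, -0.29 and -0.15 in NCD1 to NCD3 and 0.30, 0.37 and 0.23 in HFD1 to HFD3. *Sgk1* and *Errfi1* ran against it, and *Hif3a*, the gene with the fewest counts, was the lowest of the 7 in NCD1 and NCD2 but not in NCD3. Without *Hif3a* the mean was -0.21, -0.21 and -0.19 in NCD1 to NCD3 and 0.18, 0.24 and 0.19 in HFD1 to HFD3, nearly level within each diet. Among the genes outside all lists whose centred profile was nearest to the mean of all 7 over the 6 samples were *Zfp459*, *Atp6v0e*, *Mcm8* and *Prrt4*, at Euclidean distances from 0.151 to 0.286 log2 units. *Atp6v0e*, a subunit of the vacuolar proton pump, was the most abundant of them and went from 53.8 CPM in NCD1 to 92.1 CPM in HFD3. *Zfp459*, the nearest, was the least abundant of them, from 0.902 CPM in NCD1 to 1.87 CPM in HFD2, so its profile rests on low counts. All 6 samples enter both profiles, so this likeness includes the difference between the diets that was known when the target genes were proposed. It also rests on *Hif3a*, since the slope of the mean within NCD comes from that gene's 5 to 12 counts.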

How the data were processed

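RNA-seq of ARC tissue was compared between 3 NCD and 3 HFD samples, whose titles carry C or H and were read as these diets; the deposited group means equal the means of the C and H columns. According to the methods, the authors screened reads against ribosomal sequences with bowtie2, aligned them with HISAT2 and quantified genes with StringTie and RSEM; the submitters' notes give mm10. Versions, annotation and strand setting are not given in the sources used here. The deposited table holds whole-number read counts per gene and FPKM computed by the authors, and also their mean FPKM per group. Its fold change, p-value and FDR columns hold the authors' own comparison and were not used. RSEM gives estimates that need not be whole, so the counts, taken here as deposited, may have been rounded; Poisson intervals and implied lengths rest on them.

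Identifiers were matched to GENCODE M21 (22267 of 22322). Counts were filtered with filterByExpr, TMM-normalized and tested with edgeR's quasi-likelihood test (R 4.3.3, edgeR 4.0.16), with diet as the only term and Benjamini-Hochberg adjustment over 14188 genes. Log2 CPM used a prior count of 2. The 3-count floor was 0.188 CPM in NCD1 and 0.58 CPM in HFD3, and intervals and floors cover counting error only. The edgeR fit was tested on simulated data. Implied length is the count divided by FPKM and by the total count, in bases. Alternatives were other normalizations, filters, DESeq2 1.42.0, limma 3.58.1 on log2(FPKM + 1), a replicate block, a depth covariate and each sample left out.

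The genes and lists were chosen with earlier results of these data known. Named genes were the 10 genes, every other pathway gene with p under 0.05, the most abundant gene of each list described, early genes with adjusted p under 0.05, and the 5 nearest profiles, of which 1 is not reported here. *Fkbp4*, *Crh*, *Kiss1*, *Sgf29*, *Gm10649*, *Otp*, *Sim1*, single markers with p under 0.05 and the genes below the filter were named outside this rule, after their values were seen.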

Additional observations from a re-analysis of the deposited data

How the results depend on the processing

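The direction of *Nr3c2*, *Hsd11b1*, *Fkbp5*, *Tsc22d3*, *Zbtb16*, *Sgk1*, *Sult1a1* and *Errfi1* was the same under all 14 alternatives, and that of *Hif3a* under the 13 that kept it, since it was below the mean of 50 counts. *Nr3c1* ranged from -0.16 to 0.12 and was above 0 in 2 of 14. On log2(FPKM + 1) *Hif3a* had a log2 fold change of 0.07, *Nr3c2* of -0.31 and *Zbtb16* of 0.90, and without NCD3 *Hif3a* was at 2.55. The number of genes higher in HFD among the 10 was 6 to 7 when samples were left out in turn. Genes called over the whole table numbered 8, against 19 with DESeq2, 15 with at least 1 count, 5 with limma on FPKM, 17 with the replicate block, 15 with depth as a covariate, and 1 (without NCD2, HFD1 or HFD2) to 16 (without NCD3) when a sample was left out, with 4 without HFD3. The cause was not tested. Pathway genes outside the 10 with an adjusted p under 0.05 numbered 0, against 2 with DESeq2, 1 with at least 1 count, 2 with the replicate block and 0 to 2 (without NCD3) with a sample left out. Those with p under 0.05 numbered 9, and 4 (without NCD2 or HFD3) to 13 (without NCD3). The implied length of *Hif3a* in HFD over NCD was 2.06, and 1.56 to 4.78 (without NCD2). The mean receptor ratio in HFD over NCD was 1.30, and 1.15 to 1.499 with a sample left out, an alternative added after the data were seen, as were the early genes with a sample left out and the profile without *Hif3a*. Samples of the same number deviated together with a correlation of -0.012, 0.11 and 0.37, so the numbers were not taken as pairs, and the replicate block left the direction of all 10 genes as it was. Depth limits *Hif3a* most, at 5 counts in NCD1.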
